A study of Myotis pilosus with 4 samples.

Results

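Brain and white adipose tissue (WAT) of active bats were compared over every mature miRNA that the study listed for Myotis ricketti, a hibernating bat that the labels name Myotis pilosus. The members were the listed sequences themselves, 119 of 119 that the study classed as conserved and 77 of 77 that it classed as bat-specific. Both classes are taken over from the study and were not tested here. The reads of a miRNA were the reads of the tag identical to its listed sequence. The libraries were 2 of the 4 in the series: active brain (AB), from whole brain, and active WAT (AA), from intra-abdominal fat. Each was 1 library of small RNA from a pool of 3 adult, wild-caught bats mixed in equal amounts, and the labels call the active state aroused. Hibernating bats of the same site gave the other libraries, HB (brain) and HA (WAT), which serve below only as a separate pair of the same tissues. Since the catch was in October for the active state and in March for hibernation, state and season cannot be told apart. Per the study's methods, brain and WAT came from the same bats, so AB and AA are pools of the same 3 animals. A pool of 3 bats gives 1 value per tissue, without replicates, and hides any difference between bats.

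A miRNA is cut from the stem of a hairpin precursor, and a strand from its 5′ arm (5p) or its 3′ arm (3p) guides a silencing complex to messenger RNAs. Pairing rests mainly on the seed, bases 2 to 8 of the miRNA, so miRNAs with the same seed can share targets. Brain and fat of mammals are known to hold very different miRNAs, since neurons, glia, adipocytes, vessels and muscle each have their own, while the let-7 family is abundant in nearly all adult tissues. The listed names miR-7a, 7b, 7d, 7e, 7f and 7g belong to miRNAs with the seed of let-7 (GAGGTAG), and miR-7c-5p alone has the seed of miR-7 (GGAAGAC).

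The following are listed mature sequences of miRNAs with high brain to WAT ratios or high reads in brain, written 5′ to 3′ as DNA, with the seed in capitals.
miR-219-3p: aGAATTGTggctggacatct
miR-135-3p: tGTAGGGAtggaagccatgaa
miR-9-3p: tAAAGCTAgataaccgaaagta
miR-92b-3p: tATTGCACtcgtcccggcct
miR-154-3p: aATCATACatggtagacctgttt
miR-7c-5p: tGGAAGACtagtgatttt
miR-3958-3p: aGATATTGcacggttgatct

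The next sequences belong to miRNAs with high WAT reads or ratios far on the WAT side, with the seed again in capitals.
miR-193-3p: aACTGGCCcacaaagtcccgct
miR-365-3p: tAATGCCCctaaaaatccttat
miR-199-3p: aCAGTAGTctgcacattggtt
miR-199-5p: cCCAGTGTtcagactacct
miR-92a-3p: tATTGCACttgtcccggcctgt

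The last set holds miRNAs with many reads in both tissues, and miR-7f-5p, which differs in its brain to WAT ratio from its close relative miR-7d-5p.
miR-29-3p: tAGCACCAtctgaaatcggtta
miR-100-5p: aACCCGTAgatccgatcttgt
miR-7d-5p: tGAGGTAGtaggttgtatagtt
miR-7f-5p: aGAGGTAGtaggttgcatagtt

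The depth was 10007650 clean reads in AB and 11437337 in AA. The listed tags took 2402772 reads in AB, which was 24.0% of its clean reads (exact 95% interval 23.98 to 24.04), and 2393989 reads in AA, which was 20.9% (20.91 to 20.95). Brain thus gave a slightly larger share of listed miRNA reads than WAT. Such intervals, and those of the ratios below, cover counting error only, since PCR copies of a molecule are not independent reads. Of the distinct tags, 87478 were found in both libraries, and these held 94.5% of AB reads and 94.0% of AA reads.

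Reads were concentrated in a few miRNAs in both tissues. The 10 miRNAs with the most reads held 91.9% of the listed reads in AB and 95.3% in AA, while the median miRNA had 44 reads in AB and 40.5 in AA. Of these 10, 6 were the same in both libraries (miR-100-5p, miR-29-3p and the let-7 members miR-7b-5p, 7d-5p, 7e-5p and 7f-5p), and they held 59.1% of the listed reads in AB and 58.1% in AA. The other 4 in AB were miR-124a-3p, miR-124b-3p, miR-219-3p and miR-3958-3p, and the other 4 in AA were miR-1-3p, miR-140-3p, miR-199-3p and miR-378-3p. The first place in AB went to miR-124a-3p with 18.7% of the listed reads, and in AA to miR-199-3p with 19.2%, by the listed tag. These places changed with length variants summed, where the joint sum of miR-7b-5p and miR-7d-5p led in both libraries, with 1106972 reads in AB and 1231807 in AA. In AB it was followed by miR-124 with 1001796, and in AA by miR-100-5p with 844107, miR-378-3p with 831788 and miR-199-3p with 810511. miR-101-3p, chosen after its values were seen, went from 3546 to 233950 reads in AB and from 6753 to 312304 in AA. Reads of different miRNAs in a library are not in proportion to molecules, because adapter ligation favours some sequences, so these places describe reads.

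For each miRNA the ratio of brain to WAT was taken on the log2 scale after scaling the 2 libraries by TMM over the listed miRNAs, so that a positive value means higher in brain. A ratio was used where the 2 libraries together held 10 or more reads, which 159 of the listed miRNAs passed, and a size of 1 or more (2-fold) was counted as a difference. Of the 37 that did not pass, 8 had no read in either library. Of the 159, 61 were higher in brain (38.4%) and 58 were higher in WAT (36.5%), together 74.8%, and 40 lay under a size of 1. With the whole counting interval beyond 1, the counts were 51 in brain (32.1%) and 45 in WAT (28.3%). The median log2 ratio was -0.01, the middle of the values ran from -1.99 to 2.45 (quartiles), and the median size was 2.18. Large sizes were more often on the brain side: among sizes of 3 or more, 34 were brain and 28 WAT, and among sizes of 5 or more, 16 were brain and 8 WAT. Of the 159 values, 12 were bounds with 0 reads in 1 library, where 3 reads were put in place of 0. On the brain side lay 11 of these bounds and on the WAT side 1, so the counts of large sizes mix ratios and bounds. No p-value can be given with 1 library per tissue. Just inside the limit lay miR-30c-3p at -1.02 and the bat-specific cCCGGCGGggaaggtggct at 1.04 and gATGCTCTtagctgagtg at -1.07. The one at 1.04 fell under a size of 1 with length variants summed (0.87) and with tags that contain bases 2 to 17 (0.58). It also did so with scaling by listed miRNA reads (0.93) and with TMM over conserved miRNAs (0.95). The one at -1.07 fell under it with length variants summed (-0.52). Just outside the limit lay cAAGCTCGcttctatgggtctgt, listed as bat-specific, at -0.99, miR-285-3p at 0.92 and miR-125-3p at 0.91. The first of these begins with the whole listed sequence of the conserved miR-100-3p and is longer at the 3′ end. With length variants summed it cannot be told apart from miR-100-3p.

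**Figure D1:**
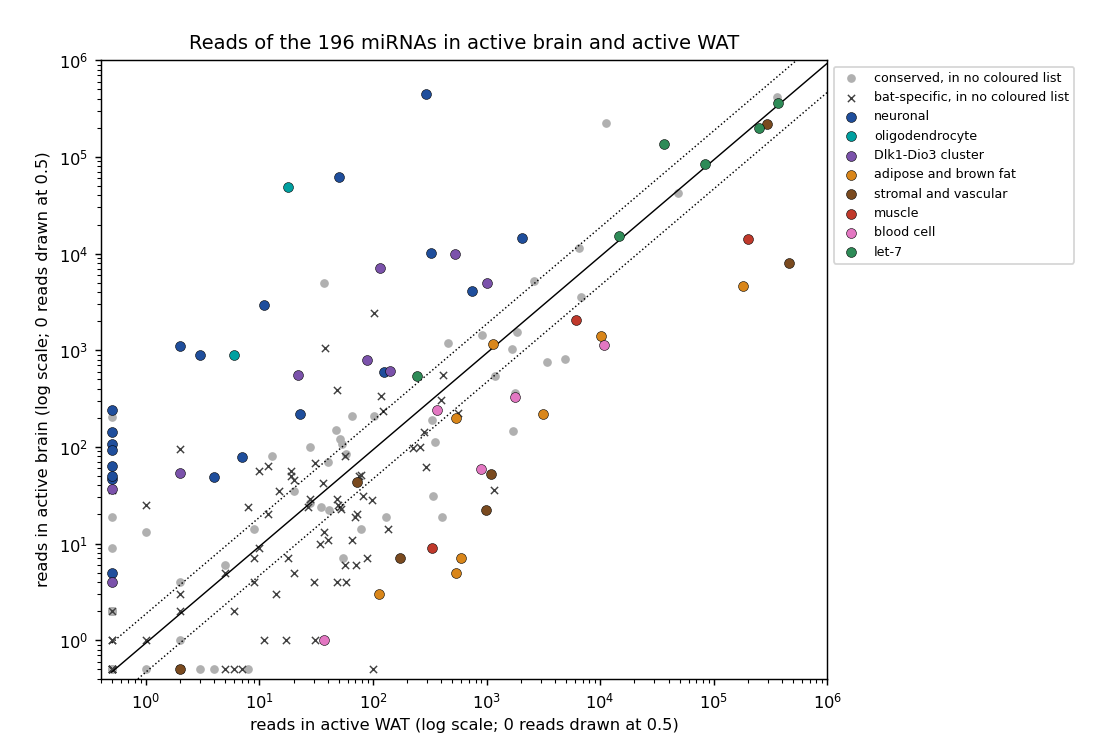
Reads of each listed miRNA in active WAT (x axis, log scale) and active brain (y axis, log scale), coloured by marker list, with 0 reads drawn at 0.5. The solid line marks equal levels after TMM scaling and the dotted lines a log2 ratio of 1 and -1; neuronal and oligodendrocyte points lie above the band, muscle points and most adipose and stromal points below it, and let-7 points along it except miR-7f-5p and miR-7a-5p.

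The neuronal list held 20 miRNAs known to be rich in neurons or brain, and all were detected in AB. Of its members 19 passed the minimum of reads, and 19 of 19 were higher in brain, against 38.4% of all miRNAs. Their median log2 ratio was 5.04, against -0.01 for all miRNAs. That median is the value of miR-153-3p, which had 0 reads in AA. It is thus a bound, with 3 reads put in place of 0. Together the members of the list had 547611 reads in AB (22.8% of the listed reads) and 3640 in AA (0.152%). These counts went with the label of the brain library but are no independent check of it. The list was chosen with earlier results of these data known. It also holds miRNAs that the study called brain-specific from the same libraries, such as miR-1298-5p and miR-153-5p. The most abundant gene of the list was miR-124a-3p, the leading miRNA of neurons, which represses transcripts of other cell types. It had 449967 reads in AB and 292 in AA (log2 ratio 10.69, interval 10.52 to 10.86), or 1652-fold. The longer listed form of the same miRNA, miR-124b-3p, had 62399 reads in AB and 50 in AA (log2 ratio 10.39, interval 9.99 to 10.82). The 2 forms carry the seed AAGGCAC, are identical over the 18 bases of the shorter form, and are length variants of the same 5′ sequence. Summed over every tag with those first 18 bases, the family had 1001796 reads in AB and 715 in AA (log2 ratio 10.51, interval 10.41 to 10.62).

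Other neuronal miRNAs were lower in reads, with log2 ratios from 2.36 to 9.22. miR-9-3p, of a hairpin that acts in neural progenitors and neurons, had 2918 reads in AB and 11 in AA (log2 ratio 8.15, interval 7.31 to 9.16). miR-135-3p had 1110 reads in AB and 2 in AA (9.22, interval 7.36 to 12.26), and miR-383-5p had 894 and 3 (8.32, interval 6.77 to 10.60). With so few WAT reads the size of these last ratios is known only within several log2 units. miR-7c-5p, the brain and neuroendocrine miR-7, had 10140 reads in AB and 325 in AA (log2 ratio 5.06, interval 4.90 to 5.23). The list thus spanned more than 8 log2 units, and its lowest members still had counting intervals above 1. miR-129-5p had 594 reads in AB and 124 in AA (2.36, interval 2.08 to 2.65), and miR-129-3p, the other arm of the hairpin, had 14360 and 2060 (2.90, interval 2.83 to 2.97). miR-448-3p, encoded in mammals within an intron of the serotonin receptor gene Htr2c, had 4138 reads in AB and 739 in AA (2.59, interval 2.47 to 2.70). These 3 had more reads in WAT than miR-9-3p. For miR-218a-5p, a miRNA of motor neurons, the reads were 219 in AB and 23 in AA (3.35, interval 2.73 to 4.04).

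Of the neuronal list, 8 miRNAs had no read in AA. miR-1298-5p, whose hairpin also lies in the Htr2c gene of mammals, had 238 reads in AB, which against a floor of 3 reads made it at least 85.0-fold higher in brain. By the same floor, miR-124-5p (143 reads) was at least 51.1-fold higher, miR-153-5p (107 reads) at least 38.2-fold and miR-153-3p (92 reads) at least 32.9-fold. miR-551-3p (63 reads), miR-1298-3p (50 reads) and miR-873-3p (47 reads) were at least 22.5-fold, 17.9-fold and 16.8-fold higher. The eighth, miR-448-5p, had 5 reads in AB and did not pass the minimum. A count of 0 in AA allows up to 0.262 CPM relative to clean reads, so these exact forms were not detectable in WAT at this depth. With length variants summed, AA held 7 reads of miR-551-3p and 1 each of miR-153-3p and miR-448-5p, and still none of the other 5.

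The oligodendrocyte list held both arms of miR-219, which promotes the maturation of the cells that make myelin. miR-219-3p had 49302 reads in AB and 18 in AA (log2 ratio 11.52, interval 10.86 to 12.27), or 2936-fold, the highest of the 159. miR-219-5p had 894 reads in AB and 6 in AA (7.32, interval 6.19 to 8.77). In AB the 3p arm thus gave nearly all reads of the hairpin (5p share 1.78%, interval 1.67 to 1.90, and 2.95% with length variants summed), and in AA the 5p share was 25% on 24 reads (9.77 to 46.7).

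The Dlk1-Dio3 list held miRNAs of the large imprinted cluster that is active in the embryo, the placenta and the adult brain of mammals. Of its 9 members 8 passed the minimum, and 8 of 8 were higher in brain, against 38.4% of all miRNAs, with a median of 4.01 and 23786 reads in AB against 1913 in AA. This median uses miR-539-3p, which had 0 reads in AA, with 3 reads put in place of 0. The highest was miR-154-3p, with 7011 reads in AB and 115 in AA (6.03, interval 5.76 to 6.31). The most abundant, miR-485-3p, had 9794 and 532 (4.30, interval 4.18 to 4.43), and miR-432-5p had 4927 and 1014 (2.38, interval 2.28 to 2.48). The ninth, miR-432-3p, had 4 reads in AB and 0 in AA.

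Outside these lists, the largest number of reads on the brain side belonged to miR-3958-3p, with 226127 in AB (9.41% of the listed reads) and 11177 in AA (0.467%), for a log2 ratio of 4.44 (interval 4.41 to 4.47). miR-92b-3p and miR-92a-3p, which have the same seed ATTGCAC and differ over the 20 compared bases by T10C (positions counted from the 5′ end, the base of miR-92a-3p first), lay on opposite sides. miR-92b-3p, of a hairpin known in neural progenitors, had 4929 reads in AB and 37 in AA (7.16, interval 6.69 to 7.67). miR-92a-3p, of the widely expressed miR-17-92 cluster, had 363 in AB and 1767 in AA (-2.18, interval -2.35 to -2.02). The opposite sides held with length variants summed, at 7.42 for miR-92b-3p (23482 reads in AB and 143 in AA) and -1.52 for miR-92a-3p (7331 and 21939). miR-363-3p, the last member of the list, had 210 reads in AB and 66 in AA (1.77, interval 1.36 to 2.19).

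The 2 listed miR-200 miRNAs, known from epithelia, had few reads, with more in brain than in WAT. miR-200a-3p had 204 reads in AB and 0 in AA, at least 72.9-fold higher, and miR-200b-3p had 99 and 28 (1.92, interval 1.30 to 2.58). With length variants summed, miR-200a-3p had 832 reads in AB and 4 in AA (7.76), so its 0 is a count of the exact form alone. Of the miR-181 3p arms, 2 of 3 were higher in brain, against 38.4% of all miRNAs, and 1 was under a size of 1, with 163 reads in AB and 54 in AA in sum, or 3116 and 692 with length variants summed. Of the miR-221 and miR-222 list, 3 of 4 passed the minimum and 2 were higher in brain, against the same 38.4%, among them miR-222-3p (5218 reads in AB, 2639 in AA, 1.08, interval 1.02 to 1.15). The call of miR-222-3p was lost with length variants summed (0.35), with bases 2 to 17 (0.36), with scaling by listed miRNA reads (0.98) and with TMM over conserved miRNAs (0.99).

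The adipose list held 8 miRNAs known from white or brown fat cells, and none was higher in brain. Of the 8, 7 were higher in WAT, against 36.5% of all miRNAs, with a median log2 ratio of -4.42 and 7639 reads in AB against 196461 in AA (8.21% of its listed reads). miR-193-3p and miR-365-3p, of a hairpin cluster that acts in brown fat cell formation, had the lowest ratios of the 159 by the listed tag. miR-193-3p had 5 reads in AB and 541 in AA (-6.66, interval -8.29 to -5.43), or 101-fold, and miR-365-3p had 7 and 598 (-6.32, interval -7.64 to -5.26). The bulk of the reads came from miR-378-3p, which lies in an intron of the gene for the mitochondrial coactivator PGC-1β, with 4624 in AB and 180178 in AA (-5.18, interval -5.23 to -5.14), or 36.4-fold.

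miR-365-5p, the other arm of the miR-365 hairpin, had 3 reads in AB and 113 in AA (-5.14, interval -7.43 to -3.55). With length variants summed it had 46 and 5075 (-6.72), further to the WAT side than miR-193-3p (-5.94) and miR-365-3p (-5.86). The other 4 adipose miRNAs were less far apart. miR-130-3p, a repressor of the adipocyte factor PPARγ, had 221 reads in AB and 3108 in AA (-3.71, interval -3.92 to -3.52), and miR-22-3p had 1419 and 10259 (-2.75, interval -2.83 to -2.67), or 10013 and 43316 with length variants summed (-2.05). miR-455-3p, known from brown fat, had 201 and 535 (-1.31, interval -1.55 to -1.08). miR-148-3p did not differ by the size used, with 1159 reads in AB and 1129 in AA (0.14, interval 0.02 to 0.26).

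Of the stromal and vascular list, 6 of 7 members passed the minimum, 4 were higher in WAT, against 36.5% of all miRNAs, and 2 were under a size of 1. In bulk tissue, fewer cells of a type and less RNA per cell cannot be told apart. miR-199-3p, a miRNA of fibroblasts and other mesenchymal cells, had 8024 reads in AB and 458628 in AA (-5.74, interval -5.77 to -5.70), or 53.3-fold, and its other arm miR-199-5p had 22 and 988 (-5.39, interval -6.07 to -4.78). The arms of this hairpin kept nearly the same ratio to each other, with a 5p share of 0.273% in AB and 0.215% in AA. miR-145-3p, of smooth muscle and pericytes, had 7 and 173 reads (-4.53, interval -5.86 to -3.45), or 29 and 363 with length variants summed (-3.58), and miR-10-5p, encoded in a Hox gene cluster, had 52 and 1097 (-4.30, interval -4.73 to -3.90). miR-100-5p was among the most abundant in both tissues, with 220756 reads in AB and 297206 in AA (-0.33, interval -0.34 to -0.32), out of 228904 and 758167 for the whole list. The list's reads in AB were thus almost all of miR-100-5p, which was under a size of 1.

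The muscle list, miR-1-3p, miR-133-3p and miR-206-3p, was higher in WAT in 3 of 3 members, against 36.5% of all miRNAs, with 16059 reads in AB and 208761 in AA, 8.72% of the listed reads of AA. These miRNAs are defining markers of striated muscle, and by the listed tag their share of AA reads was slightly larger than the 8.21% of the adipose list. With length variants summed the order turned, to 278120 reads in AA for the muscle list (5.03% of the summed reads of listed miRNAs) and 917586 for the adipose list (16.6%). Nearly all came from miR-1-3p, with 14019 reads in AB and 202291 in AA (-3.75, interval -3.78 to -3.73), while miR-133-3p had 9 and 331 (-5.10, interval -6.24 to -4.16, and -3.82 with bases 2 to 17). miR-206-3p, of skeletal muscle, shares the seed GGAATGT with miR-1-3p and had 2031 reads in AB and 6139 in AA (-1.50, interval -1.57 to -1.42). In HA the muscle list held 13.2% of the listed reads and the adipose list 1.60% by the listed tag, and 7.71% and 4.01% of the summed reads. The part of muscle tissue in the WAT library was not tested.

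The blood cell list was higher in WAT in 4 of 5 members, against 36.5% of all miRNAs, with 1762 reads in AB and 13873 in AA (0.579% of its listed reads). Most were of miR-16-5p, which is also found widely outside blood, with 1138 in AB and 10813 in AA (-3.15, interval -3.24 to -3.06). miR-142-5p, of leukocytes, had 59 and 895 (-3.82, interval -4.23 to -3.44), and miR-486-5p, of red cells, had 326 and 1763 (-2.33, interval -2.51 to -2.16). The part of blood left in either tissue was not tested.

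Outside the lists 32 conserved miRNAs remained, of which 21 passed the minimum, 5 were higher in brain (38.4% of all miRNAs were), 8 were higher in WAT (36.5% of all) and 8 were under a size of 1. On the WAT side were miR-1468-5p with 19 reads in AB and 408 in AA (-4.32, interval -5.07 to -3.66), and, chosen after their values were seen, miR-503-5p with 146 and 1713 (-3.45), and miR-28-3p with 753 and 3436 (-2.09). Of the miR-30 3p arms, 2 of 4 were higher in WAT, against 36.5% of all miRNAs, and 2 were under a size of 1. Both calls were lost with bases 2 to 17, where miR-30b-3p went from -1.56 to -0.65 and miR-30c-3p from -1.02 to -0.28. The call of miR-30c-3p was also lost with length variants summed (-0.96), with scaling by clean reads (-0.93) and with DESeq2 scaling (-0.84).

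**Figure D2:**
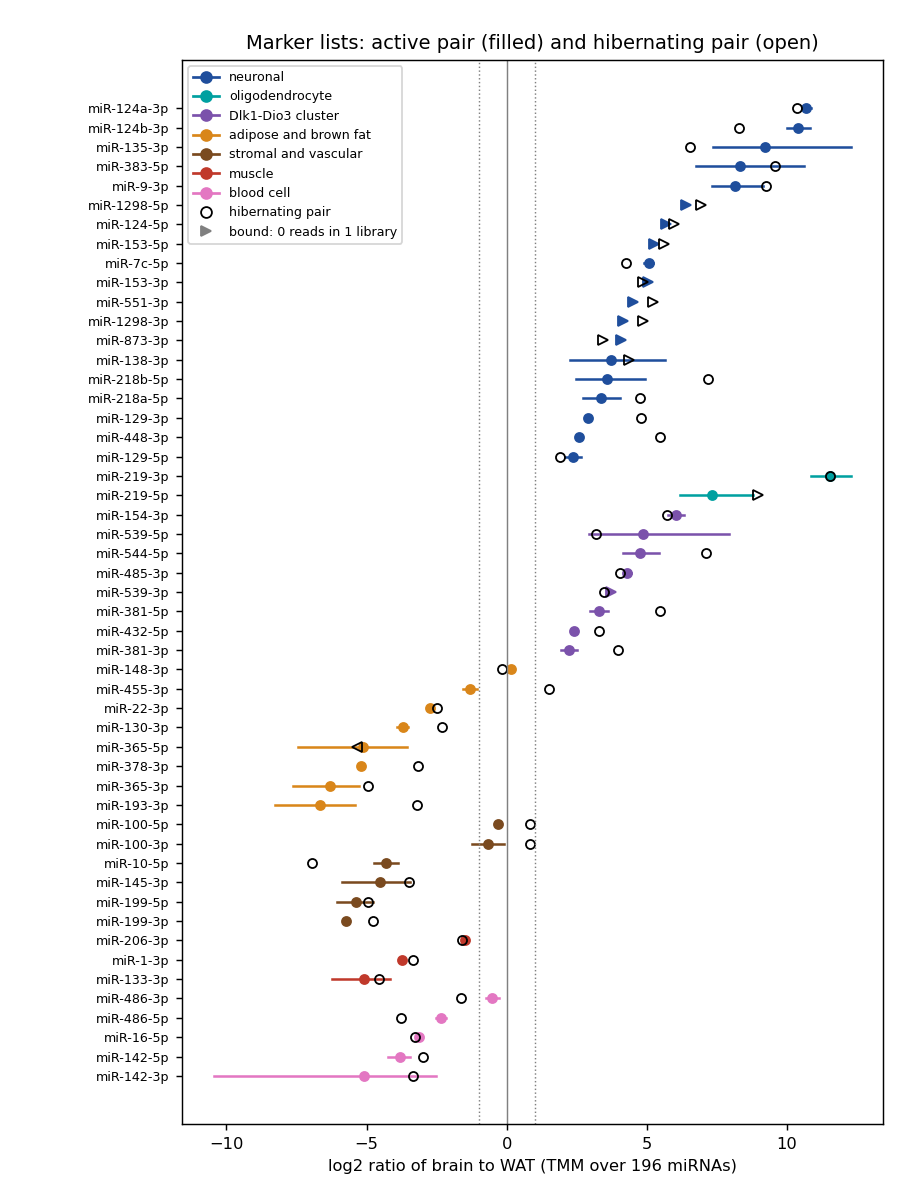
Log2 ratio of brain to WAT of each tested miRNA of 7 marker lists (x axis), in the active pair (filled, with the exact 95% counting interval) and in the hibernating pair (open); triangles are bounds where 1 library had 0 reads, and dotted lines mark 1 and -1. All neuronal, oligodendrocyte and Dlk1-Dio3 members lie right of 1 in the active pair, from 2.22 to 11.52, and all muscle members left of -1; among the members past a size of 1 in both pairs, miR-455-3p alone has its open circle on the other side of 0.

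The miRNAs with the most reads in common belonged to let-7 and miR-29. The 6 let-7 members held 799986 reads in AB (33.3% of the listed reads) and 751901 in AA (31.4%), a log2 ratio of 0.19 for the sum. Of the 6, 4 were under a size of 1: miR-7d-5p with 364795 reads in AB and 366251 in AA (0.09), miR-7b-5p with 200325 and 249770 (-0.22), miR-7e-5p with 84358 and 84535 (0.10) and miR-7g-5p with 15388 and 14568 (0.18). Scaled by listed miRNA reads, miR-7d-5p and miR-7e-5p were both at -0.01, so no direction is read for them. miR-7f-5p stood apart, with 134582 reads in AB and 36531 in AA (1.98, interval 1.96 to 2.00), and made up 16.8% of let-7 reads in AB and 4.86% in AA. It differs from miR-7d-5p by T1A and T16C, with the base of miR-7d-5p first, and neither position is in the seed. The rare miR-7a-5p had 538 and 246 reads (1.23, interval 1.01 to 1.45). So the family kept a like total in both tissues while the share of miR-7f-5p was larger in brain.

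miR-29-3p, a repressor of collagen and other matrix transcripts, ranked 2 in AB with 416098 reads of the listed tag and 3 in AA with 357670 (0.32, interval 0.31 to 0.32). miR-285-3p, which has the same seed AGCACCA, had 11475 and 6497 (0.92, interval 0.88 to 0.96). miR-140-3p, known from cartilage, had 42597 reads in AB and 48359 in AA (-0.08, interval -0.10 to -0.06). These 3 differences were under the size used. The side of miR-140-3p depended on the scaling, at 0.01 by clean reads and 0.10 by DESeq2, so no direction is read from it.

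**Figure D3:**
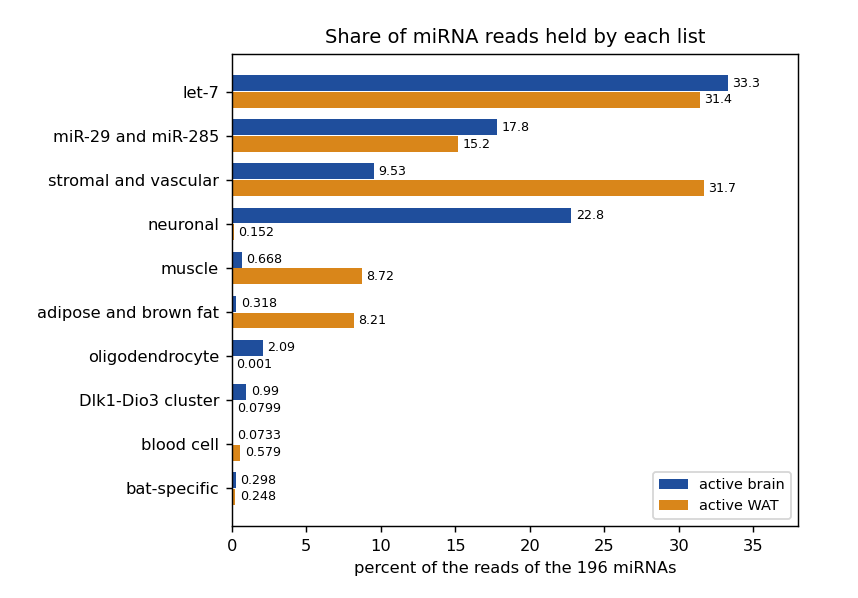
Share of the listed miRNA reads, by the listed tag, held by each list (x axis, percent) in active brain (blue) and active WAT (orange). The let-7 shares are close at 33.3% and 31.4%, the neuronal share is 22.8% in brain and 0.152% in WAT, and the stromal and vascular share is 9.53% in brain and 31.7% in WAT, of which miR-100-5p alone holds 9.19% and 12.4%.

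The shares with length variants summed, in AB and AA, were 31.4% and 28.2% for let-7, 21.9% and 0.127% for the neuronal list, 11.5% and 30.0% for the stromal and vascular list and 0.737% and 16.6% for the adipose list. Of these 4 lists, the adipose list alone moved by over 1.5 times from its share by the listed tag, in both tissues.

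The bat-specific miRNAs had few reads, 7151 in AB (0.298% of the listed reads) and 5929 in AA (0.248%) by the listed tag. With length variants summed they had 50970 in AB and 47151 in AA, which was 1.02% and 0.853% of the summed reads. Of the 77, 61 passed the minimum, 16 were higher in brain (38.4% of all miRNAs were), 29 were higher in WAT (36.5% of all) and 16 were under a size of 1, with a median log2 ratio of -0.87. Among the conserved miRNAs, 98 of 119 passed, 45 were higher in brain, 29 were higher in WAT and 24 were under 1, with a median of 0.74. The medians of the 2 groups thus lay on opposite sides of 0. The bat-specific miRNAs higher in WAT had a median GC content of 55.0%, those higher in brain 47.5% and those under a size of 1 45.5%, and the conserved ones 47.6%, 45.0% and 47.6% in the same order. The part of base composition in the ratios was not tested. Whether each sequence classed as bat-specific is a miRNA found only in bats was not tested either.

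Among bat-specific miRNAs that reached 100 reads over both libraries, the highest ratios on the brain side belonged to the following sequences.
Bat-specific, 1067 reads in AB and 38 in AA, log2 ratio 4.91: tAGAAACGtccagaggcaccg
Bat-specific, 2413 reads in AB and 103 in AA, log2 ratio 4.65: tAGGAGCAgtgataggtaatat
Bat-specific, 385 reads in AB and 48 in AA, log2 ratio 3.10: aACGTAGAggaaattccacctt
Bat-specific, 340 reads in AB and 118 in AA, log2 ratio 1.63: tGTGGCGGagttggtgac

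The lowest ratios, on the WAT side, belonged to the next sequences, and the first 2 have the seed ATCGGGC in common.
Bat-specific, 0 reads in AB and 101 in AA, at least 31.4-fold higher in WAT: gATCGGGCctaaaccggcagc
Bat-specific, 36 reads in AB and 1157 in AA, log2 ratio -4.91: gATCGGGCctaaaccggcagtt
Bat-specific, 14 reads in AB and 136 in AA, log2 ratio -3.18: cAGGGGATgtccgactgct
Bat-specific, 62 reads in AB and 291 in AA, log2 ratio -2.13: gCGTTGGTggtatagtgg

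The seed ATCGGGC belonged to 4 bat-specific entries, with 51 reads in AB and 1356 in AA in sum (-4.63, interval -5.07 to -4.23). The first 2 share their first 18 bases, and the most abundant tag with those bases was neither of them but gATCGGGCctaaaccggcagt, with 248 reads in AB and 13691 in AA. Summed over all such tags there were 636 reads in AB and 24641 in AA (-5.21), so the 0 in AB is a count of the exact form alone.

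Of the listed miRNAs, 175 were detected in AB and 166 in AA, and 153 in both. In AB, 22 miRNAs had reads with 0 in AA, of which 8 had 3 reads or fewer, and the highest was miR-1298-5p with 238. In AA, 13 had reads with 0 in AB, of which 7 had 3 or fewer, and the highest was the bat-specific miRNA with 101 named above. Among the brain ones outside the neuronal list were miR-539-3p (37 reads), miR-876-5p (19 reads) and the bat-specific tTGACCAAagaatagacctcct (36 reads). With length variants summed, 14 miRNAs had reads in AB and none in AA, and 4 had reads in AA and none in AB, the latter with at most 9 reads.

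Brain miRNAs were found in WAT at low and unequal levels. Per 10000 reads in AB, AA held 3.65 reads of miR-219-3p, 6.49 of miR-124a-3p, 8.01 of miR-124b-3p, 37.7 of miR-9-3p, 75.1 of miR-92b-3p, 164 of miR-154-3p and 494 of miR-3958-3p. In the other direction, per 10000 reads in AA, AB held 92.4 reads of miR-193-3p, 117 of miR-365-3p, 175 of miR-199-3p, 257 of miR-378-3p and 693 of miR-1-3p. The reads in 1 tissue per read in the other thus differed widely between these miRNAs.

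As a check on the exact tag, all tags that begin with the first 18 bases of a miRNA were summed, which adds its 3′ length variants. The sums held 50.1% of the clean reads in AB and 48.3% in AA, so in both libraries the 3′ variants together took more reads than the listed forms. Of the 119 miRNAs past a size of 1, 109 stayed past it on the same side, 10 fell under it and none changed side with a size of 1, and 4 others of the 159 came to pass it. Pearson's r across the 159 miRNAs between the 2 ways of counting was 0.98, as a description, since both use the same libraries. The listed form had a similar share of its variants in both tissues for some abundant miRNAs: 44.9% in AB and 40.8% in AA for miR-124a-3p, 54.9% and 56.6% for miR-199-3p, and 23.5% and 21.7% for miR-378-3p. For others the shares lay further apart, with 67.9% in AB and 75.7% in AA for miR-29-3p and 37.7% and 23.2% for miR-222-3p. Of the 24 miRNAs whose variants were compared tag by tag, 19 had the same most abundant form in both tissues. With the sums the ratio was 11.36 for miR-219-3p, -5.73 for miR-199-3p and -5.34 for miR-378-3p, each within 0.20 of the listed tag. Others moved further, miR-135-3p from 9.22 to 10.59, miR-9-3p from 8.15 to 8.91, miR-193-3p from -6.66 to -5.94 and miR-365-3p from -6.32 to -5.86. miR-222-3p was lowered to 0.35, and its most abundant form was 22 nt long in AB and 23 nt in AA. Of the 74 named ratios with a size of 1 or more, 29 moved by over 1.5 times with these sums and 30 with bases 2 to 17, and among those not yet given this way were the following. On the brain side, miR-138-3p went from 3.71 to 5.17 with the sums, miR-383-5p from 8.32 to 9.07, miR-221-5p from 1.33 to 2.07 and miR-181b-3p from 3.80 to 2.42. miR-539-5p went from 4.85 to 4.08 and miR-218b-5p from 3.58 to 2.97. On the WAT side, miR-142-3p went from -5.11 to -6.54. The bat-specific aACGTAGAggaaattccacctt went from 3.10 to 3.88, as its listed tag was only 2.18% of its 17658 summed reads in AB, and tAGAAACGtccagaggcaccg from 4.91 to 4.32. The bat-specific cAGGGGATgtccgactgct went from -3.18 to -2.39 with bases 2 to 17. As 33 entries share their first 18 bases with another entry, their sums cannot be told apart.

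Both arms were listed for 46 hairpins, and 36 of these had 10 or more reads in each library. By the listed tag, the leading arm differed between tissues in 2 of the 36. For miR-381, of the Dlk1-Dio3 cluster, the 5p arm held 56.8% of the reads in AB (54.2 to 59.5) and 38.6% in AA (32.2 to 45.2). This change of arm rests on the listed tag: with length variants summed the 5p arm had 49.2% in AB (1214 reads of 5p and 1254 of 3p) and 34.4% in AA (134 and 256). For miR-486 the 5p arm led in both, with 57.8% in AB (53.6 to 61.9) and 82.8% in AA (81.2 to 84.4), or 75.9% and 91.9% with the sums. For the miR-7 hairpin, miR-7c, the 5p arm held 97.96% in AB and 76.1% in AA, while the sums gave 52081 reads of 5p and 266 of 3p in AB and 1705 and 168 in AA. In these 3 hairpins the intervals of the 2 tissues did not overlap. The other hairpin whose leading arm differed was bat-specific, with 5p shares of 37.8% in AB (27.3 to 49.2) and 50.6% in AA (42.6 to 58.6), intervals that overlapped. By the sums, none of 41 hairpins with 10 or more reads in each library changed its leading arm.

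The hibernating pair, HB and HA, shares no library with the active pair and was scaled on its own. In it 40.9% of the 159 miRNAs with enough reads were higher in brain and 35.2% higher in WAT. Of the 119 miRNAs past a size of 1 in the active pair, 116 had a hibernating value, 105 lay on the same side of 0 and 98 of them also had a size of 1 or more. miR-219-3p had log2 ratios of 11.52 in the active pair and 11.53 in the hibernating pair, and miR-124a-3p 10.69 and 10.34. The 19 neuronal miRNAs tested there were again all on the brain side by 1 or more, and the 8 Dlk1-Dio3 miRNAs likewise. On the WAT side the values were -5.74 and -4.78 for miR-199-3p, -3.75 and -3.33 for miR-1-3p, and -6.66 and -3.20 for miR-193-3p. For miR-378-3p they were -5.18 and -3.18, with 180178 reads in AA and 11775 in HA. miR-7f-5p, the let-7 member with the largest tissue difference, had 1.98 in the active pair and 0.45 in the hibernating pair. The median absolute difference between the pairs was 0.93 over 155 miRNAs, and 29 differed by more than 2. With 1 library in each of the 4 groups these differences have no replicate error and were not tested.

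**Figure D4:**
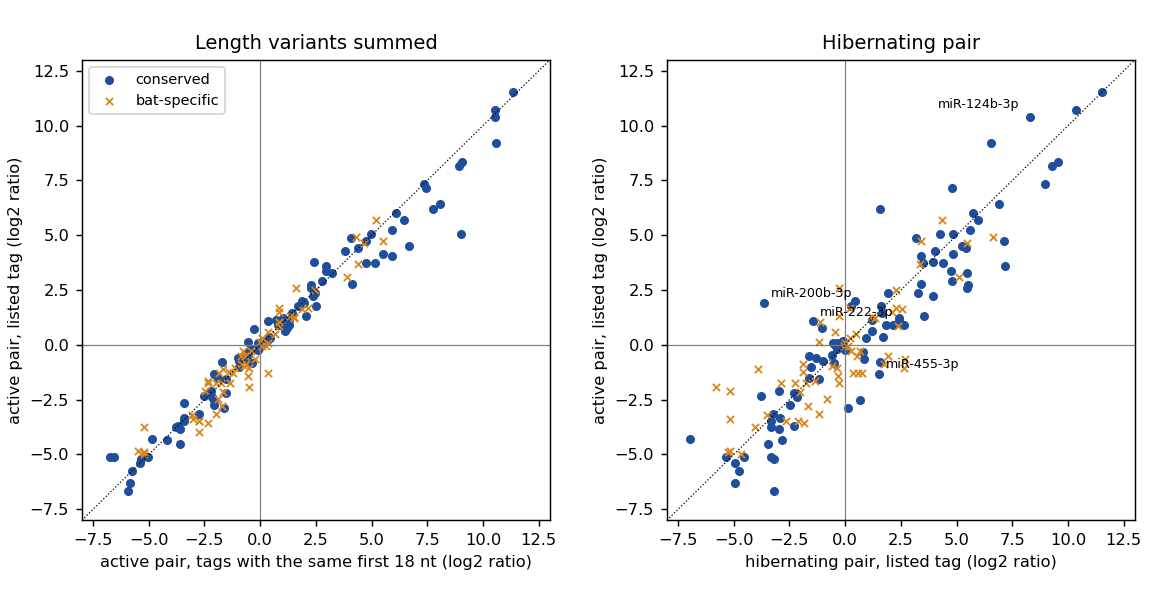
Log2 ratio of brain to WAT of the listed tag in the active pair (y axis, both panels) against the ratio with length variants summed (left, x axis) and against the hibernating pair (right, x axis), for conserved (circles) and bat-specific (crosses) miRNAs. Points on the dotted diagonal have the same value by both measures. The spread is narrower on the left (r = 0.98) than on the right (r = 0.91). On the right, 4 miRNAs with a size of 1 or more in both pairs lie on opposite sides of 0. These are miR-200b-3p, miR-222-3p, miR-455-3p and the bat-specific cCCGGCGGggaaggtggct.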

How the data were processed

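Small RNA of whole brain and WAT was sequenced on the Solexa platform. Adapter sequence, poor reads and reads shorter than 18 nt were taken out by the authors, who deposited the read count of each distinct tag (18 to 30 nt), without normalization and before mapping to a genome. The trimming software was not given in the sources used here. The count of each of the 196 listed sequences was the count of the identical tag, read with Python 3.11.15, and depth was the sum over all tags. Counts were scaled by TMM (edgeR 4.0.16 in R 4.3.3) over the 196 miRNAs. The study used edgeR on these counts, but a test across genes needs replicates, so no p-value was computed. Intervals are exact Clopper-Pearson 95% intervals (SciPy 1.17.1). A floor of 3 reads stood in for 0, and no ratio was given where both libraries had 3 reads or fewer.

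Alternatives were scaling by clean reads, by reads of the 196, by DESeq2 1.42.0 or over conserved miRNAs, sums over tags with the first 18 bases or with bases 2 to 17, thinning of AA to the depth of AB (seed 1), other minimums of reads and other sizes. Shares of lists and arms with the first 18 bases were added after seeing the data. The members, the marker lists (from general knowledge) and the comparisons were chosen with earlier results of these data known, so list counts are not independent evidence of direction. Printed results of lists are those of the neuronal, oligodendrocyte, Dlk1-Dio3, adipose, stromal and vascular, muscle, blood cell, epithelial (miR-200), let-7, miR-29 and miR-285, miR-30, miR-181, miR-92 and miR-363, miR-221 and miR-222 lists; of the 6 passenger arms of let-7, 2 passed the minimum and both were under a size of 1. Of the miR-29 and miR-285 list, 3 of 5 passed and 1 of these 3 was higher in brain, against 38.4% of all miRNAs.

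Named were miRNAs with 100 or more reads in the pair that had the 10 highest or 10 lowest conserved ratios or the 4 highest or 4 lowest bat-specific ones. The 5 most abundant in each library, the 5 nearest 0 among those with 1000 or more reads, the 5 moved most by length variants, those with a size of 1 on opposite sides in the 2 states, those with over 10 reads in only 1 library and list members could also be named. The steps were tested on simulated data for the active pair: of 159 miRNAs, all 60 changed by 4-fold passed a size of 1, as did 1 of 99 unchanged ones, and the interval held the true value in 95.6%. The simulated counts had counting error alone, and most miRNAs in them were unchanged. In the data 74.8% were past a size of 1. The simulation thus checks the steps and does not measure the error of the real ratios.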

Additional observations from a re-analysis of the deposited data

Results flagged for a closer look

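In 4 miRNAs the tissue ratio had a size of 1 or more on opposite sides in the active and the hibernating pair. In each case the difference between states was not tested, since each group is 1 library. miR-200b-3p had a log2 ratio of 1.92 in the active pair (99 reads in AB, 28 in AA) and -3.66 in the hibernating pair (24 in HB, 269 in HA). miR-222-3p had 1.08 (5218 and 2639 reads) and -1.44 (1357 and 3277). miR-455-3p had -1.31 (201 and 535 reads) and 1.52 (209 and 65). The bat-specific cCCGGCGGggaaggtggct had 1.04 (234 and 122 reads) and -1.14 (361 and 707). The opposite sides of miR-455-3p rest on the exact tag: with length variants summed, both pairs lay on the WAT side, at -2.08 (active) and -0.74 (hibernating). With the same sums, miR-200b-3p kept opposite sides, at 1.97 and -3.37, and miR-222-3p (0.35 and -1.61) and the bat-specific miRNA (0.87 and -1.30) did so with an active size under 1. As the choice looked for opposite sides, the counts of these 4 describe the libraries alone.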

How the results depend on the processing

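No paired analysis was possible because the labels give no replicate numbers and each group is 1 pooled library, although both tissues came from the same 3 bats, and no replicate could be left out. Under the other scalings the counts of miRNAs higher in brain and in WAT were 63 and 55 (clean reads), 59 and 59 (listed miRNA reads), 65 and 54 (DESeq2) and 59 and 59 (TMM over conserved miRNAs). These scalings moved all ratios together, by 0.09, -0.11, 0.18 and -0.09. Thinning left the counts at 61 and 58, sums over the first 18 bases gave 65 and 61, and no minimum of reads gave 63 and 61. With thinning, 2 of the 74 named ratios with a size of 1 or more moved by over 1.5 times. They were those of miR-138-3p (3.71 to 4.53) and miR-539-5p (4.85 to 5.67). A minimum of 100 reads gave 39 and 35, by its own construction, as fewer miRNAs were tested. The share of listed miRNA reads was 50.1% in AB and 48.3% in AA with the first 18 bases, and 55.8% and 54.6% with bases 2 to 17. The miRNAs found in AB with 0 reads in AA numbered 11 with 10 or more reads and 14 with the first 18 bases, and those found in AA with 0 in AB numbered 1 and 4. Of 91 named log2 ratios, none changed sign with a size of 1 under the scalings, the other tag sums or thinning; between 57 and 87 stayed within their counting interval. Ratios near 0 did change side, among them those of miR-140-3p, miR-7d-5p, miR-7e-5p and miR-148-3p (-0.54 with the first 18 bases), and ratios near 1 crossed it, such as that of miR-30c-3p (-0.28 with bases 2 to 17), miR-285-3p (1.01 by clean reads) and miR-222-3p (0.98 by listed miRNA reads). Depth limits the ratios of miRNAs with few WAT reads, such as miR-135-3p, and no processing choice replaces replicate bats.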
